A study of Mus musculus with 12 samples.

Results

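The genes described here are 10 marker genes of macrophages, read in RNA from mouse embryonic fibroblast cultures: Csf1r, Adgre1, Cd14, Ptprc, Tyrobp, Fcer1g, Lyz2, Cd68, Ctss and C1qa. The list was chosen by the read counts of Lyz2, which differed between cells carrying an Nrf2 allele and cells carrying a Keap1 allele, and the other 9 were added as markers of the same cell type. They are 10 of the 23186 genes listed in the tables of the series. Each of the 10 had reads in every library, and each passed the main filter on low counts in every comparison, while Ptprc had too few reads for the stricter filter of a mean of 50 with R554Q and for the difference between the alleles. Adgre1 is listed under its older symbol Emr1 and was matched by its identifier, ENSMUSG00000004730.

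The study compared fibroblasts homozygous for 1 of 2 inducible mutations, infected with Cre adenovirus or an empty one, in 4 groups of 3 libraries each. Cells labelled Nrf2D29H/D29H had the LSL-Nrf2D29H genotype and received Cre, which turns on a missense form of NRF2 (gene symbol Nfe2l2), the transcription factor that drives antioxidant genes. The same genotype with empty virus is labelled Nrf2LSL/LSL (Nrf2 KO) and called labelled knockout here, because the uninduced allele is described as having no function. Cells labelled Keap1R554Q/R554Q had the CA-Keap1R554Q genotype and received Cre, which turns on a missense form of KEAP1, the adaptor that targets NRF2 for degradation, and with empty virus this genotype is labelled Keap1WT/WT and acts as wild type. All 4 groups came from embryos of day 13.5 to 14.5, were infected at a multiplicity of 500, grown in 10% serum and harvested on day 4 after infection. No group combined wild-type Nrf2 and Keap1 alleles with Cre, so Cre and the mutation vary together, and the labels do not say how many embryos or separate cultures the replicates came from. P-values therefore measure the spread between these libraries, which may be technical. The libraries with the Nrf2 allele are called the Nrf2 cultures and those with the Keap1 allele the Keap1 cultures.

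Macrophages are phagocytes that, in the embryo, seed most tissues before birth and are maintained by signalling through the receptor CSF1R. They engulf dead cells and microbes, digest them in lysosomes, and are also a main source of complement C1q. The 10 genes cover the surface receptors of these cells, the adaptors that carry signals from activating receptors, and the lysosomal and secreted proteins they make in bulk. Several are less specific than others: Cd68 and Ctss are lysosomal genes used at lower levels by other cells, and Ptprc is carried by nearly all white blood cells.

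Lyz2 had the most reads of the 10, and its neighbour on chromosome 10, Lyz1, encodes a near-identical lysozyme, so the coding sequences of the pair were compared first. In the GENCODE M21 transcripts of GRCm38, both coding sequences are 444 bases long, differ at 22 bases (95% identity) and share no identical run longer than 118 bases. The coding bases 61 to 120 hold 9 of those differences, shown in capitals, and are printed to show where reads of the genes can be told apart.
Lyz2: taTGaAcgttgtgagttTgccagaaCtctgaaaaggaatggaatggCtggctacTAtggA
Lyz1: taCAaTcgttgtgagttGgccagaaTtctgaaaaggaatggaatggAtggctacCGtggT
Lyz1 had 1 read in a single library (R554Q replicate 2) and none in the other 11, where a count of 0 allows up to 3 reads, or 0.126 to 0.2005 CPM (read counts scaled to a common library size, here by the total of counted reads). Lyz2 (ENSMUSG00000069516, chromosome 10, 117277334 to 117282274, minus strand) had 949 to 2267 reads. Positions of genes are those of the tables, in mm10. How the counting treated reads that match both genes is not given in the sources used here.

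Promoters were examined because the genes were read as a group. Many macrophage genes are bound near their start by the factor that Spi1 encodes, an ETS-family protein whose sites hold the letters GAGGAA or AGGAAGT. Both were searched on either strand in the 250 bases before the start site, in RefSeq promoters of GRCm38.p6, and the motifs can overlap each other, since both hold AGGAA. The table held 5 of the 10 genes (Ptprc, Fcer1g, Ctss, Lyz2 and Cd68), and 4 of those had a match. Of 32851 promoters, 23.3% held GAGGAA, 7.69% AGGAAGT and 27.3% either. The matched windows are printed 5′ to 3′ along the gene's strand, with the motif or its reverse complement in capitals.
Lyz2: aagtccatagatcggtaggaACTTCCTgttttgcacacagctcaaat
Ptprc: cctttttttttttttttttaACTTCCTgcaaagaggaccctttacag
Ctss: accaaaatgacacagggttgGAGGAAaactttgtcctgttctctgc
Cd68: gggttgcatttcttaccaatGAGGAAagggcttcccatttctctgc
These lie at chr10:117282346-117282392 (minus strand), chr1:138175337-138175383 (minus), chr3:95526602-95526647 (plus) and chr11:69666370-69666415 (minus). The Lyz2 window begins 120 bases and the Ptprc window 78 bases before the start site. The same Ptprc promoter also held GAGGAA at 158 bases and AGGAAGT at 113 bases, both in the other orientation, which are not printed. A match describes letters and is not evidence of binding.

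Before the values, the libraries were checked. Depth was 14963004 to 23818477 counted reads, with labelled-knockout replicate 3 the shallowest. Nqo1, an NRF2 target, averaged 8.84 CPM in the labelled knockout and 119 CPM with D29H, and 33.2 CPM in Keap1 wild type and 351 CPM with R554Q, in the order the labels give. These CPM, like those that follow except where stated, are also scaled by TMM factors over all 12 libraries. Nfe2l2 reads were still present in the labelled knockout, at 42.7 CPM against 52.8 CPM with D29H, and a count over the whole gene may not test the silenced allele. Fibroblast genes were abundant in all libraries, with 14603 to 20645 CPM summed over Col1a1, Col1a2, Col3a1, Pdgfra, Pdgfrb, Thy1, Vim and Dcn.

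Together the 10 macrophage genes had 143.6 to 187 CPM, without TMM factors, in the Nrf2 cultures and 73.9 to 112 in the Keap1 cultures. More than any other gene, Lyz2 makes up this sum, and its difference chose the list, so the sum is a description. The lowest Nrf2 library, labelled-knockout replicate 3, had a 95% Clopper-Pearson interval of 138 to 149.8 on that scale, and the highest Keap1 library, wild-type replicate 2, one of 107.7 to 117 (these intervals cover counting error only, not the spread between cultures). A bulk level cannot separate fewer cells of a type from less RNA per cell.

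Per unit of transcript length, Lyz2, the macrophage lysozyme, stood far above the other markers. On the authors' FPKM scale, Lyz2 averaged 73.1 ± 11.2 (SD, n = 6 libraries) in the Nrf2 cultures and 45.2 ± 9.06 in the Keap1 cultures. C1qa, a chain of complement C1q, followed at 15.04 ± 2.09 and 6.61 ± 0.915. Tyrobp, the adaptor DAP12, had 12.9 ± 3.12 and 5.05 ± 1.04. Next came Fcer1g, the Fc receptor common gamma chain, at 8.81 ± 1.35 FPKM in the Nrf2 cultures, then Cd68 at 6.47 ± 0.699, Cd14 at 5.40 ± 0.530, Ctss at 4.67 ± 0.505 and Csf1r at 3.97 ± 0.173. Adgre1 at 1.62 ± 0.405 and Ptprc at 0.628 ± 0.145 were the lowest. The order of the mean FPKM was the same in the Keap1 cultures. In the Nrf2 cultures the ranges of neighbouring genes from C1qa down to Csf1r overlapped across libraries. Within each Nrf2 library, however, Tyrobp lay above Fcer1g, Fcer1g above Cd68, Cd68 above Cd14, and Ctss above Csf1r. C1qa lay below Tyrobp in D29H replicate 2, and Cd14 below Ctss in D29H replicate 1, so the order of these 2 pairs is not firm. Lyz2 lay above C1qa in every library, and Csf1r, Adgre1 and Ptprc lay clear of each other. In the Keap1 cultures Lyz2, Adgre1 and Ptprc likewise stood clear of their neighbours.

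**Figure D1:**
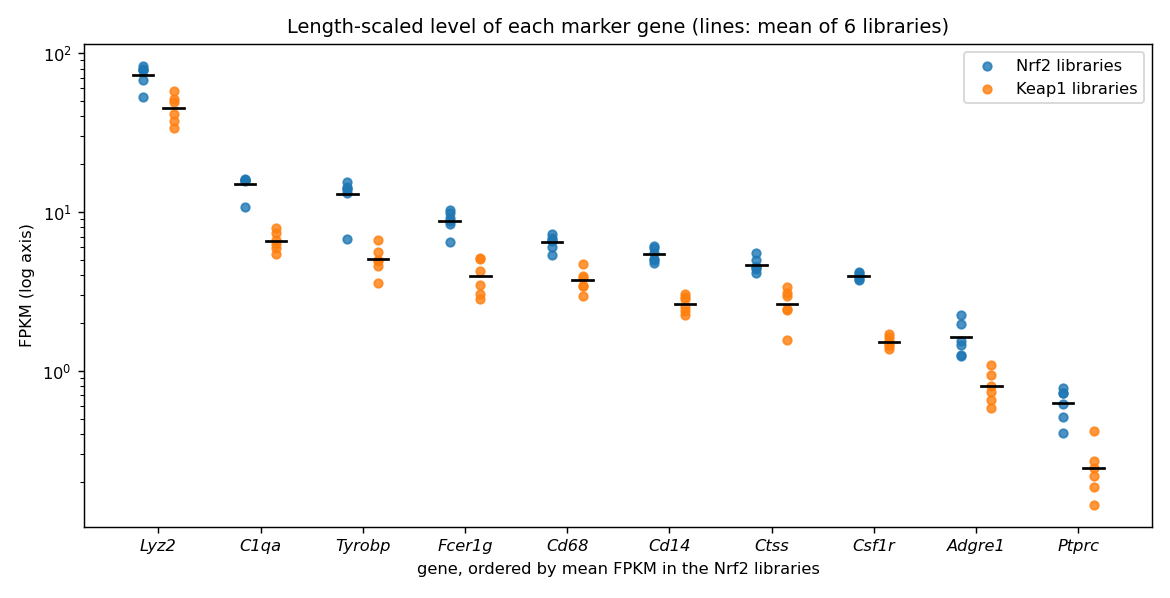
FPKM (log axis) of each marker gene in the 6 Nrf2 libraries (blue) and the 6 Keap1 libraries (orange), with a line at each mean, genes ordered by their mean in the Nrf2 libraries. Lyz2 is highest at 73.1 and 45.2 FPKM and Ptprc lowest at 0.628 and 0.246 FPKM, and the 2 cultures give the same order.

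The difference between the cultures is what drew attention to these genes, so the values that follow are a description with no test. Every marker had the higher mean in the Nrf2 cultures, by 1.54-fold to 2.48-fold. In 7 of the 10, all Nrf2 libraries lay above all Keap1 libraries, where 6.68% of the 13017 genes with a mean of at least 20 reads did, and 7.57% lay entirely below. A ratio of at least 2 was reached by 5 of the 10 and by 1.59% of those genes. Nothing is read from these counts beyond the choice of the genes. Allele, embryos and culture differ together between the cultures and cannot be told apart.

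Among the surface receptors, Csf1r, the receptor for CSF1 and IL34 on which macrophages depend, had the largest ratio and the least spread. Csf1r (ENSMUSG00000024621, chromosome 18, 61105572 to 61132149, plus strand) had 17.3, 18.4 and 17.2 CPM with D29H and 19.4, 18.9 and 18.2 CPM in the labelled knockout. With R554Q it had 7.36, 6.67 and 8.12 CPM, and in Keap1 wild type 6.63, 7.17 and 8.11 CPM. The lowest Nrf2 library was thus above the highest Keap1 library by a wide margin, and Cre and empty virus overlapped in both cultures. The ratio of the culture means was 2.48 ± 0.252 (SD from the spread of 6 and 6 libraries), 2.58 among the empty-virus groups and 2.39 among the Cre groups.

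Cd14, the coreceptor that hands lipopolysaccharide to TLR4, separated all 4 groups. The gene (ENSMUSG00000051439, chromosome 18, 36725074 to 36726736, minus strand) had 7.83, 7.12 and 7.56 CPM with D29H against 9.47, 9.40 and 8.46 in the labelled knockout. In the Keap1 cultures it had 3.55, 3.92 and 3.76 CPM with R554Q against 4.97, 4.73 and 4.73 in wild type. All libraries of the Cre groups lay below all those of their empty-virus groups. The ratio of cultures was 1.94 ± 0.355.

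Adgre1, which encodes the classical mouse macrophage antigen F4/80, was thinly read. The gene (chromosome 17, 57358686 to 57483529, plus strand) had 4.94, 3.83 and 3.92 CPM with D29H and 6.34, 4.80 and 7.09 in the labelled knockout, then 1.90, 2.12 and 3.56 with R554Q and 2.46, 3.15 and 2.74 in Keap1 wild type. All Nrf2 libraries were above all Keap1 libraries, although R554Q replicate 3 came close to the lowest of them. The ratio was 1.94 ± 0.674, from 38 to 148 reads per library.

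Ptprc, the leukocyte phosphatase CD45, had the fewest reads of the 10, 15 to 87 per library. The CPM of the gene (ENSMUSG00000026395, chromosome 1, 138063407 to 138175706, minus strand) were 3.98, 3.02 and 2.03 with D29H, 3.73, 2.68 and 3.64 in the labelled knockout, 0.751, 1.40 and 1.14 with R554Q and 0.994, 2.24 and 1.34 in Keap1 wild type. D29H replicate 3 lay below Keap1 wild-type replicate 2, so the cultures overlapped. The ratio was 2.43 ± 1.11.

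The adaptors Tyrobp and Fcer1g carry the activating motifs for receptors that lack their own, such as TREM2 and Fc receptors. Tyrobp (ENSMUSG00000030579, chromosome 7, 30413788 to 30417577, plus strand) had 8.01, 8.18 and 7.56 CPM with D29H, 7.33, 7.99 and 3.71 in the labelled knockout, 3.20, 2.75 and 2.03 with R554Q, and 3.88, 2.90 and 2.74 in Keap1 wild type. One library, labelled-knockout replicate 3, stood out of line with the other Nrf2 libraries and lay just below Keap1 wild-type replicate 1. The ratio was 2.44 ± 0.777. Fcer1g (ENSMUSG00000058715, chromosome 1, 171229572 to 171234365, minus strand) had 6.82, 5.56 and 5.45 CPM with D29H, 6.51, 6.25 and 4.23 in the labelled knockout, 3.504, 1.89 and 2.08 with R554Q, and 2.98, 2.44 and 3.60 in Keap1 wild type. Again labelled-knockout replicate 3 was the lowest Nrf2 library, but here it stayed above the Keap1 libraries, and the ratio was 2.11 ± 0.652.

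C1qa (ENSMUSG00000036887, chromosome 4, 136895917 to 136898803, minus strand), a chain of the complement protein that tags targets for clearance, had 16.2, 10.6 and 15.7 CPM with D29H and 16.6, 16.7 and 16.1 in the labelled knockout. It had 6.61, 5.64 and 6.29 CPM with R554Q and 7.95, 8.54 and 7.31 in Keap1 wild type. The labelled-knockout libraries agreed closely, D29H replicate 2 was low, and the cultures did not overlap, with a ratio of 2.17 ± 0.471. The other chains of the protein, C1qb and C1qc, had ratios of 2.45 and 2.18.

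Cd68 (ENSMUSG00000018774, chromosome 11, 69664213 to 69666153, minus strand), which encodes a heavily glycosylated lysosomal membrane protein, had 8.33, 7.65 and 6.30 CPM with D29H, 8.87, 8.33 and 7.22 in the labelled knockout, 5.86, 4.19 and 4.90 with R554Q, and 4.35, 4.93 and 3.87 in Keap1 wild type. Ctss (ENSMUSG00000038642, chromosome 3, 95526786 to 95556403, plus strand), the gene of the lysosomal protease cathepsin S, had 7.33, 5.60 and 5.36 CPM with D29H, 5.998, 6.89 and 5.92 in the labelled knockout, 4.06, 2.12 and 3.37 with R554Q, and 3.36, 4.73 and 4.41 in Keap1 wild type. For both genes the lowest Nrf2 library was only just above the highest Keap1 library. Their ratios, 1.66 ± 0.320 for Cd68 and 1.68 ± 0.478 for Ctss, were below those of the receptors and adaptors, within the spread of several of them.

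Lyz2 had the smallest ratio of the 10, 1.54 ± 0.405. It had 103, 94.4 and 95.4 CPM with D29H, 97.1, 86.4 and 65.2 in the labelled knockout, 52.8, 42.8 and 48.0 with R554Q, and 67.0, 75.7 and 66.2 in Keap1 wild type. Its group means ran in the order D29H, labelled knockout, Keap1 wild type, R554Q, and labelled-knockout replicate 3 lay just below the Keap1 wild-type libraries. The ratio was 1.19 between the empty-virus groups and 2.04 between the Cre groups, whereas for the other 9 genes these ratios ran from 1.51 to 2.58 and from 1.49 to 2.98.

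**Figure D2:**
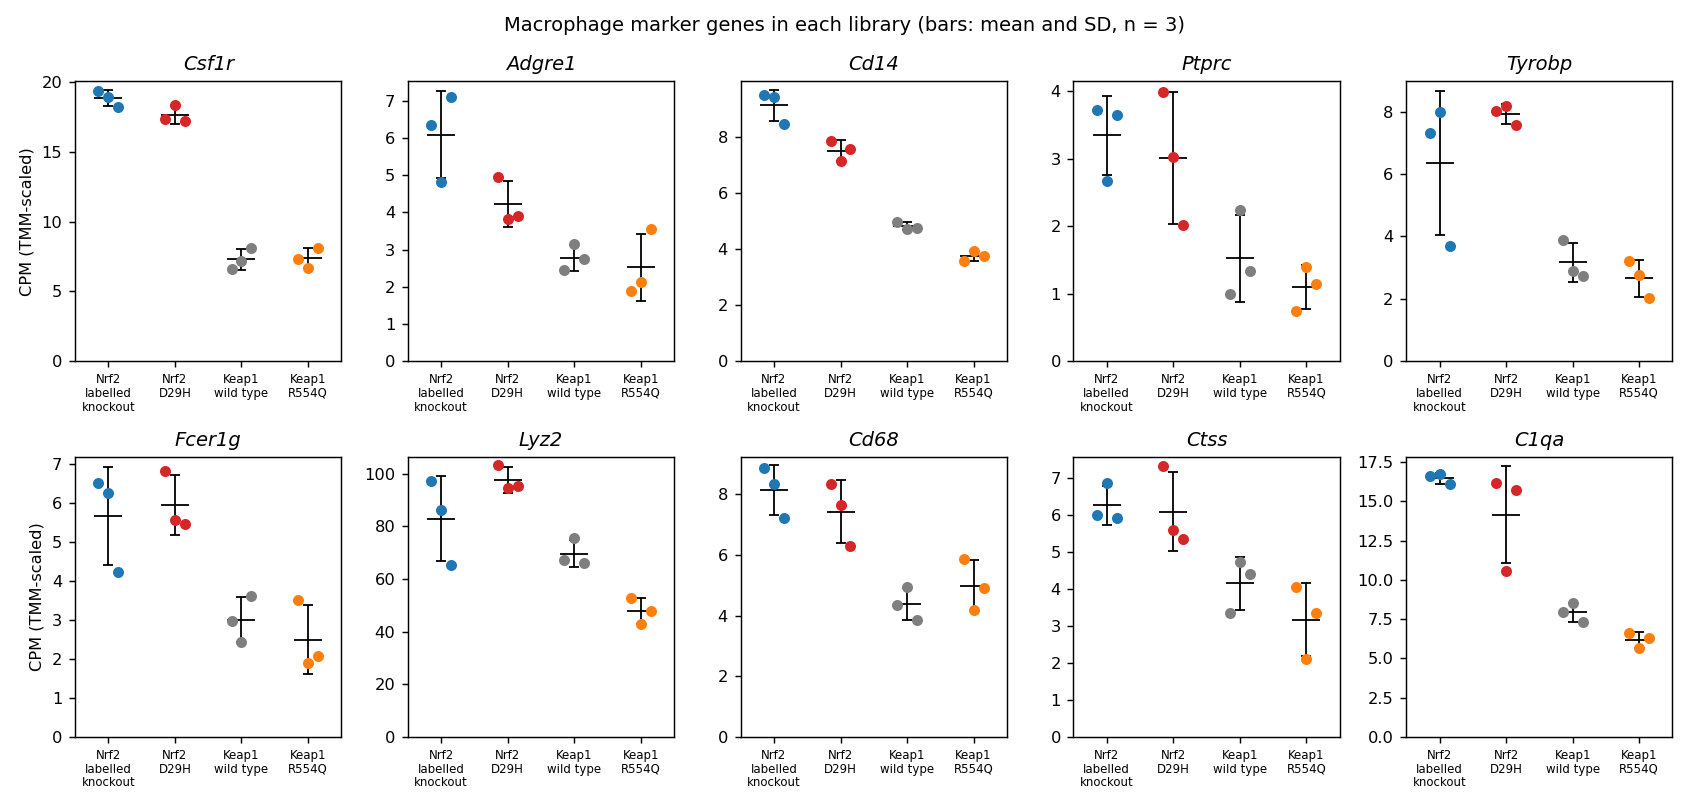
TMM-scaled CPM of each marker gene in each library (1 panel a gene, linear axis from 0), by group, with the mean and SD of 3 libraries. All 10 genes have higher means in the Nrf2 groups, and labelled-knockout replicate 3 is the lowest library of its group except for Adgre1 and Ptprc, farthest below for Tyrobp (3.71 CPM), Fcer1g (4.23 CPM) and Lyz2 (65.2 CPM).

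Labelled-knockout replicate 3 was the lowest library of its group for all of the 10 genes except Adgre1 and Ptprc, and farthest below for 3 of them. Its CPM relative to the mean of replicates 1 and 2 was 0.484 for Tyrobp, 0.663 for Fcer1g and 0.711 for Lyz2, while it was 1.27 for Adgre1 and 1.14 for Ptprc. The gene lengths listed run from 564 bases for Tyrobp to 5186 for Ptprc, and across the 10 genes the log2 deviation of this library correlated with log length at r = 0.804, against 0.234 across 12972 genes (a description, since genes are not independent). Other libraries had r of -0.824 to 0.723 across the 10 genes and -0.242 to 0.279 across all. The part of length in these values was not tested. Without this library, 9 of the 10 genes had all Nrf2 libraries above all Keap1 libraries (8.63% of the 13017 genes), with Ptprc the exception, and the ratio of Lyz2 was 1.62. Leaving out any other single library gave 7 or 8.

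Genes outside the list give the setting of the difference. Of 24 other macrophage markers, 16 had a mean of at least 20 reads, and their ratios had a median of 2.18 (0.825 to 4.45), with 13 lying entirely higher in the Nrf2 cultures. That mean is over all 12 libraries, so a gene can reach it through the culture where it is high, and these figures describe only the genes that did. The highest by FPKM were Coro1a, an actin regulator of leukocytes (5.44 against 1.66), Laptm5, a lysosomal protein of blood cells (5.37 against 2.13), Lcp1, the leukocyte actin bundler (4.56 against 1.82), and Mpeg1, a pore-forming protein of macrophages (3.20 against 1.37). Pf4, a chemokine of platelets and some tissue macrophages, had 26 to 51 reads in the Nrf2 libraries and 5 to 10 in the Keap1 libraries, and reached the mean of 20 only through the former. Folr2, a folate receptor of tissue-resident macrophages, went the other way at 0.825. Summed over the 24, the level was 100.5 to 116 CPM in the Nrf2 cultures and 37.5 to 60.4 CPM in the Keap1 cultures. Cd163 had at most 4 reads in any library and Vsig4 at most 1.

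Partners of the 10 genes did not share one pattern. Of 16, 9 had a mean of at least 20 reads, with a median ratio of 1.05. Fcgr3, an Fc receptor that signals through Fcer1g, had a ratio of 2.23, and Trem2, which signals through Tyrobp, one of 1.54. Csf1, the ligand of CSF1R, which fibroblasts themselves make, was abundant at 553 CPM in the Nrf2 cultures and 527 CPM in the Keap1 cultures, a ratio of 1.05. Tlr4, the receptor that CD14 serves, had a ratio of 0.768 and its cofactor Ly96 one of 1.04, and Syk, the kinase downstream of the adaptors, one of 1.04. Genes of antigen presentation were near 0, with at most 3 reads of H2-Aa, 21 of H2-Ab1 and 16 of Cd74 in any library.

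Among transcription factors of myeloid cells, Spi1 had a ratio of 2.47, with 53 to 140 reads in the Nrf2 libraries and 34 to 54 in the Keap1 libraries. Irf8 had 47 to 84 and 15 to 23 reads, and Ikzf1 20 to 40 and 5 to 20 reads, and both reached the mean of 20 only through the Nrf2 libraries. Cebpa had a ratio of 1.56 and Runx1 1.15. Lysosomal genes that most cells use showed the opposite lean to Cd68 and Ctss, with a median ratio of 0.856 over 10 genes and none entirely above. The median of the 8 fibroblast genes was 1.11, with 4 entirely above, and that of the 13017 genes was 0.999. Among those 4, Col3a1, a fibrillar collagen, had a ratio of 1.96, close to those of Cd14 and Adgre1. Markers of neutrophils, lymphocytes, mast cells and erythroid cells had no gene with a mean of 20 reads, and their summed level reached at most 1.09 CPM for any of those lists in any library. Of the endothelial markers, Pecam1, Cdh5 and Cldn5 had at most 6 reads in any library, Tek at most 39 and Emcn at most 19, while Kdr, a receptor for vascular growth factor, had at least 300 reads in every library and a ratio of 1.09. Genes of other cell types also separated the cultures. Acta1, a muscle actin (0.347), Krt18, an epithelial keratin (0.476), Tubb3, a neuronal tubulin (0.719), and Ctsk, an osteoclast protease also made by fibroblasts (0.709), lay entirely lower in the Nrf2 cultures, and Map2, a neuronal protein (1.99), entirely higher. Sox10, a neural crest factor, had 6 to 21 reads in the Nrf2 libraries and 26 to 58 in the Keap1 libraries. The part of differing culture makeup in these values was not tested.

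**Figure D3:**
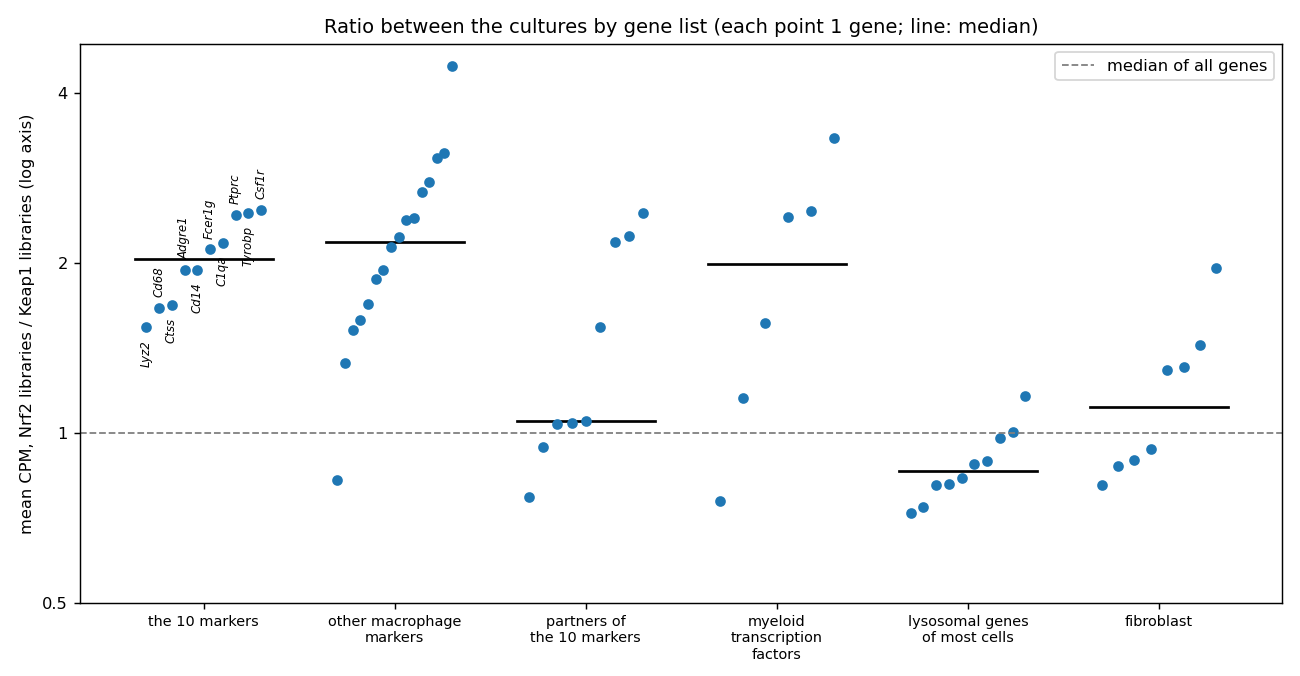
Ratio of mean CPM, Nrf2 libraries over Keap1 libraries (log axis), with 1 point per gene with a mean of at least 20 reads and a line at each list's median. The 10 markers (median 2.03) and the other macrophage markers (median 2.18) lie above the dashed line at the median of all genes with such a mean, 0.999, while the lysosomal genes of most cells (median 0.856) do not.

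Cre was then compared with empty virus within each culture, which asks whether the markers moved when the mutant protein was turned on. In the Nrf2 cultures none of the 10 genes passed the test, where 4.75% of 14370 genes did (edgeR's quasi-likelihood test, Benjamini-Hochberg adjusted p under 0.05). Adgre1 and Lyz2 had an unadjusted p under 0.05 in edgeR, and DESeq2 and limma called none of the 10 either. The median log2 fold change of the 10 was -0.11, with 7 negative, against 0.00 for all genes. For Adgre1 the log2 fold change with D29H, -0.50 with an SE of 0.18, had an adjusted p of 0.103 in edgeR. It was past the threshold only without D29H replicate 1, at -0.63 (adjusted p 0.043), in 15 alternatives that ran from 0.043 to 0.36. Lyz2 had 0.24 (SE 0.12, adjusted p 0.207), and 0.11 without labelled-knockout replicate 3. For Cd14 the value was -0.28 (SE 0.14, adjusted p 0.229), with no overlap of the groups, a separation that 13.4% of genes tested showed in that direction. Tyrobp had 0.30 (SE 0.18, adjusted p 0.334 in edgeR) and 0.07 (adjusted p 0.853) without labelled-knockout replicate 3. The remaining 6 genes had log2 fold changes of -0.21 to 0.06 and adjusted p of 0.356 to 0.917 in edgeR.

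In the Keap1 cultures Lyz2 fell with R554Q, and it was the 1 gene of the 10 to pass, where 6.17% of 14128 genes did and 2.4% were called lower. The fall measured -0.53 on the log2 scale with an SE of 0.09 and an adjusted p of 0.0023 in edgeR, with 52.8, 42.8 and 48.0 CPM below 67.0, 75.7 and 66.2 CPM, so every R554Q library was lower than every wild-type library. It stayed past the threshold in all 15 alternatives, with log2 fold changes of -0.61 to -0.41 and adjusted p of at most 0.0183. The authors' deposited table gives -0.47 with an adjusted p of 1.9406e-05, from the same read counts. Lyz2 is the gene that chose the list, and its response to the alleles was known when the tests were chosen. Its p-values are therefore a description and not independent support. The 3 markers with the next lowest adjusted p had values of the same sign and did not pass. C1qa had -0.35 (SE 0.14, adjusted p 0.129) and Cd14 -0.35 (SE 0.16, adjusted p 0.201) in edgeR, each with no overlap of the groups, as 14.5% of genes tested showed in that direction. Ctss had -0.38 (SE 0.23, adjusted p 0.315). The median over the 10 genes was -0.31, with 8 negative, against 0.00 for all genes. Csf1r, at 0.03 (SE 0.14, adjusted p 0.932), and Cd68, at 0.19 (SE 0.18, adjusted p 0.543), were the positive ones.

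The difference between the effects of the 2 alleles, D29H minus R554Q, was tested in 1 fit of all 12 libraries. None of the 10 genes was called, where 0.027% of 14794 genes were, and Lyz2 alone had an unadjusted p under 0.05. Lyz2 had a difference of 0.78 (SE 0.16, adjusted p 0.0918 in edgeR). Its adjusted p ran from 0.00887 to 0.318 over 20 alternatives, of which 3 passed the threshold: DESeq2 (0.77), testing genes of any count (0.78, adjusted p 0.0123) and leaving out labelled-knockout replicate 1 (0.91, adjusted p 0.032). DESeq2 gave the adjusted p of 0.00887 and called 1 of the 10 genes. Since Lyz2 chose the list and its response to the alleles was already known, its p-values here are likewise a description. The other 9 genes had adjusted p of at least 0.524 in edgeR.

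**Figure D4:**
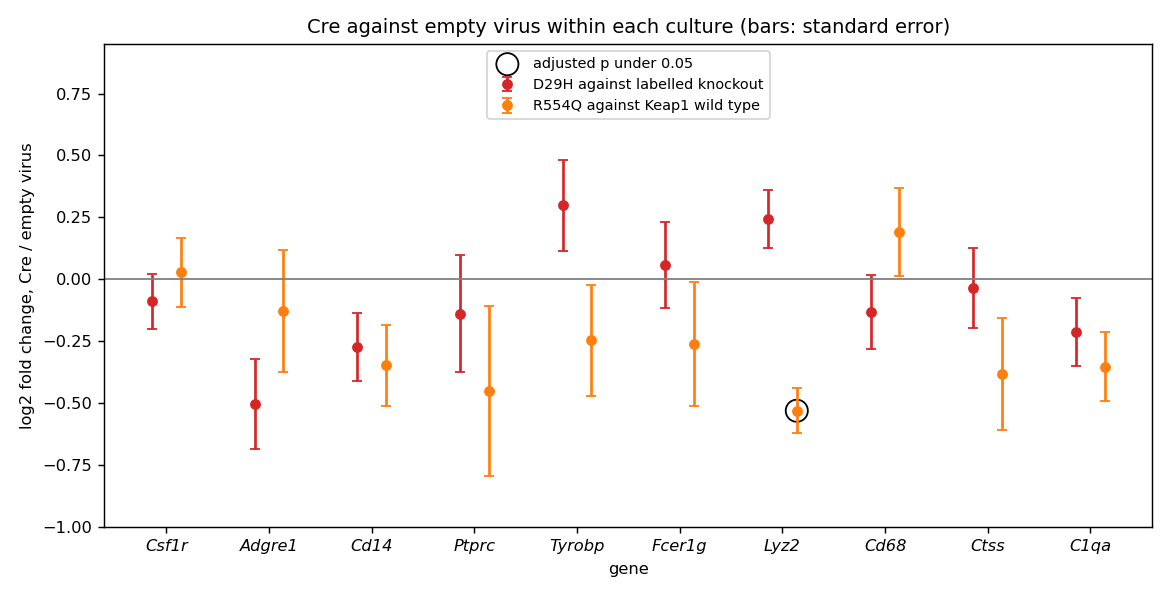
Log2 fold change of Cre over empty virus for each marker gene, with standard errors from edgeR, for D29H against the labelled knockout (red) and R554Q against Keap1 wild type (orange). The circled value, Lyz2 with R554Q at -0.53, is the one with an adjusted p under 0.05.

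Set against the sum of the other 9 markers, Lyz2 differed by group. The 9 genes summed to 69.9 to 80.7 CPM with D29H, 74.6 to 84.2 in the labelled knockout, 30.7 to 36.8 with R554Q and 37.6 to 40.8 in Keap1 wild type. The R554Q libraries were thus all below the wild-type libraries in this sum as well, while D29H and the labelled knockout overlapped. Lyz2 divided by that sum was 1.28 to 1.35 with D29H, 0.874 to 1.15 in the labelled knockout, 1.36 to 1.43 with R554Q and 1.70 to 1.85 in Keap1 wild type. None of these 4 ranges overlapped another, and the highest and lowest were the 2 empty-virus groups. These ratios were formed after the values had been seen and are given without a test.

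**Figure D5:**
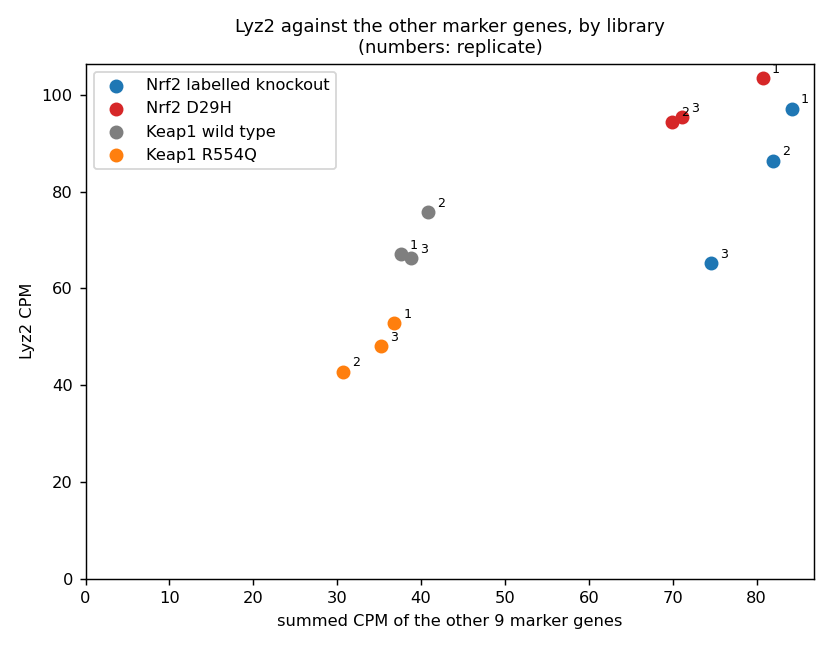
Lyz2 CPM against the summed CPM of the other 9 marker genes in each library (linear axes from 0; numbers give the replicate). The Keap1 wild-type libraries lie at 66.2 to 75.7 CPM of Lyz2 for a sum of 37.6 to 40.8 CPM, close in Lyz2 to labelled-knockout replicate 3, whose sum is 74.6 CPM.

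Of the genes on the other lists, no macrophage marker passed in either culture, among 21 tested with D29H and 17 with R554Q. Spi1 had 0.12 (adjusted p 0.812 in edgeR) and Irf8 -0.16 (adjusted p 0.8) with R554Q. Genes called on the fibroblast and muscle lists were Pdgfra, a receptor of fibroblasts, at 0.36 (adjusted p 0.0358), and Des, the muscle filament desmin, at -0.45 (adjusted p 0.0326), both with R554Q.

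How the 10 genes varied together within groups was described with each group centred on its own mean, since the 2 cultures form separate clusters. Over the 45 pairs of genes the median correlation across the 12 centred libraries was 0.198, from -0.708 to 0.773. For the 9 pairs with Lyz2 the median was 0.383. Tyrobp correlated at 0.649 with Lyz2 and 0.605 with Fcer1g. The genes most like Lyz2 on that centred scale, among 11221 genes with a mean of at least 50 reads, were Selenof (0.965) and Ppia (0.96), which are general genes of most cells. Over the 12 libraries without centring, the 8 protein-coding genes with the highest correlation to Lyz2 included Fcgr3 (0.952), and those for Tyrobp included the macrophage gene Ms4a7 (0.956). These libraries share depth and length trends, and the values only rank likeness.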

How the data were processed

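RNA was read in 12 libraries made with a NEBNext Ultra kit, 3 in each of 4 groups read from titles, genotype and treatment labels. The authors deposited raw read counts and FPKM per gene in 1 table for each allele, per the file headers. The submitters' processing notes name STAR, mm10 and DESeq2. The counting tool, annotation and use of strand are not given in the sources used here. The FPKM were recomputed from count, length and column total to within 5e-10%. The authors' deposited log2 values with their p-values, and their group means (a normalised signal per group, per the file headers) entered no test. The tables hold 22114 and 21916 genes, 20844 in both, and no listed gene has fewer than 1 read in total, so a gene absent from a table was taken as 0 there.

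The 10 genes, the other gene lists and the tests were chosen with earlier results of these data known, and the response of Lyz2 to the alleles was among those results. Lists came from general knowledge of each cell type. All 10 genes are named. From the other lists, genes called in either comparison and the up to 4 with the highest FPKM may be named, and others are named after their values were seen. Some genes that this rule names are not reported here. Counts were filtered with filterByExpr, scaled by TMM and tested with edgeR 4.0.16 (glmQLFTest, R 4.3.3), with Benjamini-Hochberg adjustment over all genes tested and calls at an adjusted p under 0.05. Each comparison of Cre with empty virus used its own 6 libraries, and the difference between alleles all 12 over genes in both tables. Standard errors are the log2 fold change over the root of its F statistic. The contrast of the cultures got no test. Alternatives were scaling by RLE or upper quartile, testing genes of any count, a mean of at least 50 reads, DESeq2 1.42.0, limma 3.58.1 with trend, a replicate block, all 12 libraries in one fit, other thresholds and leaving out each library. Offsets for GC content and length (lowess span 0.3), ratios within each virus and the counts of separated genes without each library were added after seeing the data. On simulated counts with genes set at a log2 fold change of -1, the test called 38 of 47 for D29H (14398 genes tested), 46 of 49 for R554Q (14131 genes) and 40 of 50 for the difference between alleles (14664 genes). The simulation gave every gene the same set dispersion (spread between libraries), not one estimated from these data. It does not show how often smaller changes, or changes of thinly read genes, would be called. Replicate pairs all differed beyond sampling noise (chi-square over its degrees of freedom, 4.95 to 25.1). Same-numbered libraries did not deviate together, with r of -0.214 to 0.04.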

Additional observations from a re-analysis of the deposited data

How the results depend on the processing

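Among the 10 genes, the fall of Lyz2 with R554Q kept its direction and its call in all 15 alternatives, while its difference between the alleles and the value of Adgre1 with D29H crossed the threshold in 3 of 20 and 1 of 15. All alternatives used the same read counts, and Lyz2 chose the list, so its calls are a description. The number of the 10 genes called was 0 to 1 with D29H, 1 to 1 with R554Q and 0 to 1 for the difference between the alleles when single libraries were left out, and 1 for that difference at an adjusted p under 0.10, with no filter on low counts and with DESeq2. Counts over all genes moved more. At thresholds of 0.01 and 0.10 they were 138 and 1469 with D29H, 242 and 1811 with R554Q, and 0 and 18 for the difference. Without a filter on low counts they were 1195, 1502 and 32. The difference had 71 calls with DESeq2 and 1 with upper-quartile factors, with a mean count of at least 50 and with limma. Offsets for GC content and length gave 512 with R554Q. Leaving out single libraries gave 82 to 2192 with D29H, 238 to 2872 with R554Q and 0 to 26 for the difference. With a replicate block the counts were 728, 484 and 0, and the replicate numbers are only names here, since same-numbered libraries did not deviate together. The block called 0, 1 and 0 of the 10 genes. The cause of these moves was not tested. The summed level of the 10 genes was 1.75 times higher in the Nrf2 cultures, 1.68 to 1.84 without single libraries, 2.10 without Lyz2 and 2.23 without Lyz2, Cd68 and Ctss. Depth limits Ptprc (from 15 reads), Adgre1 (from 38 reads) and Tyrobp (from 41 reads) most.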
